A study of Mus musculus with 4 samples.

Results

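The genes described here are 29 genes taken by their symbols, those that interferons are known to induce and those that prepare or carry peptides for class I antigen presentation. A row was found for 28 of them among the 32287 genes of the count matrices, and Mx1 was not analysed here. They were measured in 4 single-cell RNA libraries of GFP-positive smooth muscle cells, taken at 12 weeks of age from the arch and ascending part of the aorta in C57BL/6J mice. WT 1 and WT 2 came from Myh11-CreERT2.mT/mG mice (GFPiSMC), in which a Cre recombinase active after tamoxifen under the smooth muscle promoter of Myh11 switches the reporter to green fluorescence. KO 1 and KO 2 came from Tgfbr1f/f.Tgfbr2f/f mice with Myh11-CreERT2.mT/mG (Tgfbr1/2iSMCKO), which carry the same Cre and reporter and in addition floxed alleles of both TGF-beta receptor genes. Mice of both genotypes received tamoxifen for 5 days, at 1 mg per day from 4 weeks or 2 mg per day from 11 weeks of age. The course of each library is not given, so course and genotype cannot be told apart. The labels speak of cells from individual aortic segments and give no number of mice per library, so p-values measure the spread between these libraries.

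Interferons are secreted proteins that cells release after sensing viral or displaced nucleic acid. Type I interferon binds the receptor pair Ifnar1 and Ifnar2, and the kinases Jak1 and Tyk2 then activate a complex that holds Stat2 and Irf9 and binds the interferon-stimulated response element near genes such as Isg15 and the Ifit genes. Interferon-gamma acts in part through Irf1, and it is known for raising guanylate-binding proteins and the immunoproteasome, which cuts proteins into peptides that Tap1 moves to the class I molecules H2-K1 and H2-D1 with B2m.

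RefSeq promoters (GRCm38.p6, 250 bases before to 50 after each start) were found for 25 of the 29 genes. The core letters of the interferon-stimulated response element, GAAA, any 2 bases and GAAA again, searched on both strands, were present in the promoters of 13 of these 25 genes (52%), against 3.99% of all 27025 genes with promoters of the same length, or 13 of 30 promoters (43.3%) against 3.44% of 32851. The core letters of the gamma-activated site, TTCNNNGAA, which reads the same on both strands, were present for 8 of the 25 genes (32%), against 9.55% of all genes, or 26.7% of promoters against 8.30%. A match is a description of the letters and not evidence of binding. Windows before the start are shown for some of the genes that hold the core, 5′ to 3′ on the strand of the gene, with the core matches in capitals. Irf9, Oasl2, Psmb8 and Psmb9, which were called higher in KO, hold no core match, and no promoter was found for Ifi27l2a. Matches that begin with TTTC are read on the opposite strand, and neighbouring matches of one gene can overlap, as in Isg15, Bst2 and Gbp3. The first 6 lines belong to genes of the interferon response itself and the next 3 to guanylate-binding proteins, and B2m is shown because it holds the core and its level did not pass the test between the genotypes.
Isg15, chr4:156200863-156200908, minus strand: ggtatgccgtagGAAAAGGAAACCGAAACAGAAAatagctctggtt
Ifit1, chr19:34640773-34640825, plus strand: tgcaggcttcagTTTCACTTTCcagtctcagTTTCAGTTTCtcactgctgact
Ifit3, chr19:34583361-34583428, plus strand: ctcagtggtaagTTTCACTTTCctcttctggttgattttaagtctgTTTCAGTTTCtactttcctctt
Rsad2, chr12:26456551-26456584, minus strand: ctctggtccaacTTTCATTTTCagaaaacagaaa
Stat2, chr10:128270264-128270297, plus strand: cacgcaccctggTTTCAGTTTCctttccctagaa
Bst2, chr8:71537575-71537614, minus strand: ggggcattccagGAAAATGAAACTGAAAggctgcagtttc
Gbp2, chr3:142620592-142620625, plus strand: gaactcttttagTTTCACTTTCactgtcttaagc
Gbp3, chr3:142559987-142560026, plus strand: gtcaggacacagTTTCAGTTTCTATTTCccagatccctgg
Gbp7, chr3:142530271-142530304, plus strand: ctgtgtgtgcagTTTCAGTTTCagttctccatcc
B2m, chr2:122147536-122147569, plus strand: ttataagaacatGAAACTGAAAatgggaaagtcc
The window of Ifit3b, chr19:34607757-34607824, holds the same letters as that of Ifit3, and 258 of 260 aligned promoter bases of these 2 genes are identical. Ifitm3 holds its 2 matches just after the start, and Oas1a has 2 matches before it. Of the tested genes with a found promoter, 9 of 12 with the core and 6 of 11 without it were called higher in KO, against 9.17% of all tested genes. Rsad2 is among the 9 and had to differ, since it entered the test through its KO counts alone. Whether the 2 sets differ was not tested.

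**Figure D1:**
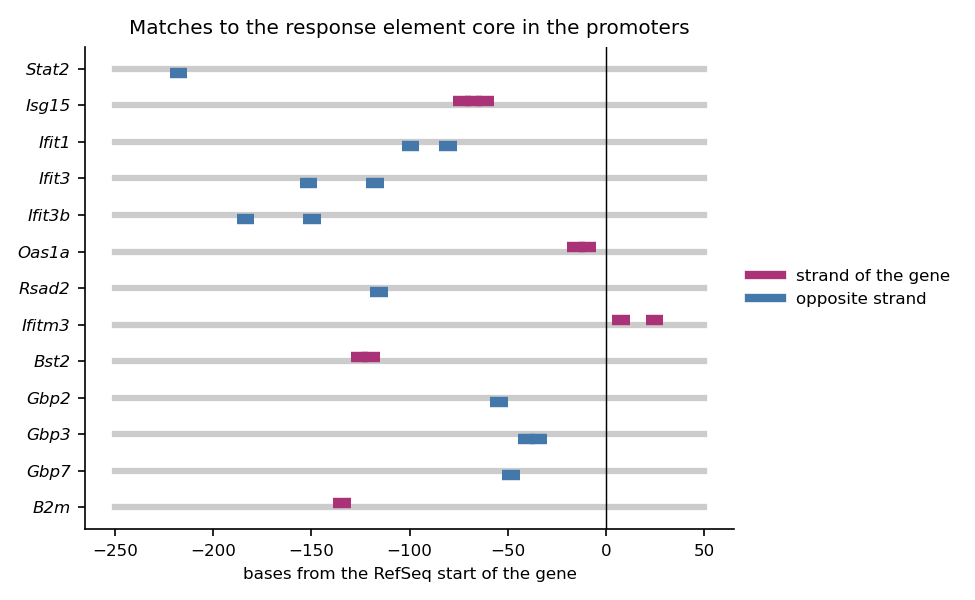
Matches to the core of the interferon-stimulated response element (coloured blocks) in the RefSeq promoters (grey bars) of the 13 genes that hold one. The x axis gives bases from the start of the gene, 250 before to 50 after, and the colour gives the strand of the match. All matches lie before the start except the 2 of Ifitm3.

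After cells under 1000 UMIs, under 500 detected genes or above 10% mitochondrial UMIs were left out, 2429 and 3265 cells of WT 1 and WT 2 and 4252 and 3522 cells of KO 1 and KO 2 remained, with 35255748 to 59203071 UMIs per library and median depths of 13898 to 15383 UMIs per cell. In all, 23 of 14673 barcode sequences occurred in more than 1 library. Tgfbr1 stood at 80.8, 82.3, 73.3 and 76.1 CPM and Tgfbr2 at 51.6, 45.1, 46.5 and 47.3 CPM for WT 1, WT 2, KO 1 and KO 2 (adjusted p = 0.203 and 0.752), and whether the counted ends lie inside the floxed parts was not tested. The 8 smooth muscle markers summed to 53700 to 65420 CPM, every one of them detected in each library. The 15 macrophage markers summed to 3.12, 2.94, 18.7 and 3.34 CPM with 8, 8, 0 and 4 of them at 0, and lymphocyte, neutrophil and red cell markers held at most 10 UMIs per list and library. A cell of KO 1 held 767 of that library's 1105 macrophage UMIs with smooth muscle markers at 1421 CPM, so its markers go against smooth muscle, and a cell of 1226 UMIs held a further 88. Pericyte markers summed to 512 to 848 CPM. Endothelial markers summed to 185 to 200 CPM, most of it Fabp4. Cdh5 (0, 0, 30 and 31 UMIs) and Tek (0, 0, 32 and 22 UMIs) were higher in both KO libraries. So were Vwf (0.823, 0.543, 3.29 and 2.67 CPM), Fabp4, Kdr, Tie1, Egfl7, Emcn and Cldn5. Erg (27.2, 28.1, 15.4 and 16.8 CPM) and Pecam1 (14.2, 17.5, 12.7 and 11.9 CPM) were lower in both KO libraries. Values of Esam overlapped between the genotypes. Fibroblast markers summed to 600, 586, 342 and 336 CPM, most of it Col1a1, which was lower in both KO libraries (578, 566, 295 and 263 CPM). Clec3b was also lower in both (0.454, 0.442, 0.0845 and 0.415 CPM), and values of Pi16 overlapped. Lum (1.19, 0.885, 10.8 and 18.9 CPM), Dcn (10.8, 8.87, 23.5 and 36.0 CPM), Dpt (0.255, 0.0402, 1.44 and 2.33 CPM), Pdgfra and Cd34 were higher in both KO libraries. The 5 markers of plasmacytoid dendritic cells, which are known for making interferon, summed to 159, 169, 213 and 205 CPM. Most of this sum was Tcf4 (115, 127, 130 and 141 CPM) and Bst2, which is among the 29 genes, while Irf8 had 3, 5, 10 and 11 UMIs, Ccr9 4, 13, 9 and 8, and Siglech 0 in every library. The part of these cell types in the results was not tested beyond leaving out cells with their markers.

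The question of this comparison is how deletion of both receptors in smooth muscle changes these genes. Most of these interferon-stimulated genes and the immunoproteasome genes Psmb8 and Psmb9 were called higher in KO, Irf1, Ifit2, Ifit3 and Ifit3b were not called, and of the class I molecules themselves H2-D1 was lower and B2m and H2-K1 were not called. Of the 28 genes with a row, 26 passed the filter on low counts, 18 were called higher, 1 lower (H2-D1) and 7 in neither direction. The background is 9.17% of 14474 tested genes called higher and 11.1% called lower. The median log2 difference, KO minus WT, was 1.17 over the 26 genes and -0.00 over all tested genes, and Rsad2 passed the filter through its KO counts alone, so it had to differ. Without it 17 of 25 were called higher, with a median of 1.15. In 20 of the 26 genes both KO libraries lay above both WT libraries, which held for 31.3% of all tested genes. Oas1a, a sensor enzyme for double-stranded RNA, had 2 UMIs in KO 1 and 0 in the other libraries, and Ifi44 had 0, 0, 14 and 5 UMIs in WT 1, WT 2, KO 1 and KO 2, so neither was tested.

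The 2 KO libraries were unequal. KO 1 lay above KO 2 in 25 of the 26 tested genes, against 52.2% of all tested genes, and by more than 1.5 times in 11 of 26, against 475 of 14474. WT 1 lay above WT 2 in 11 of 26, so no such lean appeared between the control libraries. Without KO 1, 14 genes were called higher (background 6.99%) and the median log2 difference was 0.72. Without KO 2, 21 were called higher (background 7.8%) and the median was 1.43. The macrophage markers were also highest in KO 1. Without the 9 cells of the 4 libraries that held at least 5 macrophage UMIs, the same counts of 18 higher and 1 lower were found, and likewise without cells holding at least 5 UMIs of the endothelial markers other than Fabp4 or of the fibroblast markers Pdgfra, Dpt, Pi16 and Cd34.

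**Figure D2:**
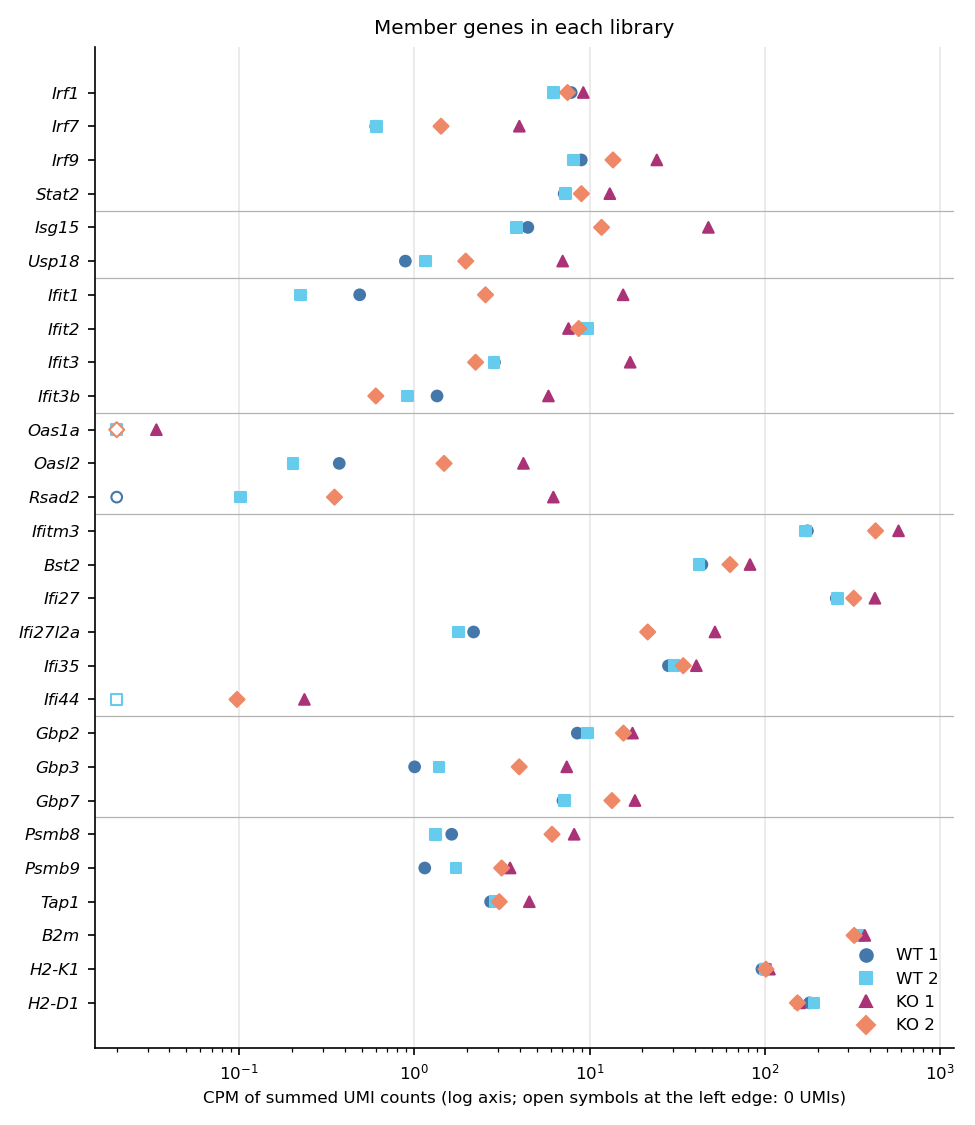
Level of each gene in each library, as CPM of summed UMI counts on a log axis, with grey lines between the roles. KO 1 (triangles) lies to the right of KO 2 (diamonds) for every tested gene except Ifit2, and the class I genes B2m, H2-K1 and H2-D1 cluster closely.

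Of the transcription factors of the signal, Irf7, Irf9 and Stat2 were higher in KO and Irf1 was not called. Irf7, which drives the second wave of type I interferon, stood at 0.602 CPM in WT 1, 0.609 in WT 2, 3.97 in KO 1 and 1.42 in KO 2 (log2 2.16, SE 0.48, adjusted p = 0.0164). Irf9, the DNA-binding partner of Stat2, stood at 8.97, 8.12, 24.2 and 13.6 CPM in the same order (log2 1.15, SE 0.24, adjusted p = 0.0120). Stat2 stood at 7.17, 7.29, 13.1 and 8.98 CPM (log2 0.61, SE 0.17, adjusted p = 0.0388). In all 3 genes the WT libraries lay close together, both KO libraries lay above them and KO 1 was the highest. Without KO 1 the log2 differences were 1.22 for Irf7, 0.67 for Irf9 and 0.31 for Stat2, and Stat2 lost its call (adjusted p = 0.182), as it did without WT 1 (0.100) and without WT 2 (0.0846). By limma-voom Irf7 (adjusted p = 0.0607) and Stat2 (0.0617) were not called. Irf1, an early factor of the interferon-gamma response, stood at 7.85, 6.24, 9.21 and 7.49 CPM, with overlapping groups (log2 0.26, SE 0.15, adjusted p = 0.277).

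Isg15 and Usp18 were both higher in KO. Isg15, a ubiquitin-like protein that is joined to other proteins during the response, stood at 4.44 and 3.84 CPM in WT, against 47.7 CPM in KO 1 and 11.7 CPM in KO 2 (log2 2.86, SE 0.58, adjusted p = 0.0115). Usp18, which removes Isg15 from proteins and dampens signalling at the type I receptor, stood at 0.889, 1.16, 7.02 and 1.96 CPM (log2 2.12, SE 0.55, adjusted p = 0.0293). Neither gene's groups overlapped, but KO 1 was several times as high as KO 2. Without KO 1 Isg15 kept its call at a log2 difference of 1.5 (adjusted p = 0.000161), while limma-voom did not call it with all libraries (0.0643). Usp18 lost it at 0.92 (adjusted p = 0.0733) and also missed the threshold without WT 1 (0.0830) or WT 2 (0.0551).

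The 4 Ifit genes, which lie side by side on chromosome 19 between 34550694 and 34650009 and encode proteins binding foreign RNA, did not move alike. Ifit1 stood at 0.487 and 0.223 CPM in WT, against 15.5 CPM in KO 1 and 2.55 CPM in KO 2 (log2 4.75, SE 0.94, adjusted p = 0.00987), and without KO 1 its log2 difference was 2.90, but limma-voom did not call it (adjusted p = 0.123). Ifit3 stood at 2.87, 2.84, 17.1 and 2.24 CPM (log2 1.77, SE 0.74, adjusted p = 0.136). Ifit3b stood at 1.35, 0.914, 5.83 and 0.603 CPM (log2 1.55, SE 0.82, adjusted p = 0.224). For both of these copies KO 1 was far above the WT libraries and KO 2 below them, so the log2 difference was -0.35 and -0.89 without KO 1 and 2.58 and 2.39 without KO 2, where both were called (adjusted p = 1.9e-06 and 0.000134). Their longest coding transcripts are identical at 98.0% of 1697 aligned bases, so UMIs may be divided between the copies wrongly. Ifit2 stood at 9.60, 9.71, 7.58 and 8.67 CPM, with both KO libraries below both WT libraries and no call (log2 -0.25, SE 0.11, adjusted p = 0.145).

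Of the antiviral enzyme genes, Oasl2 was higher in KO at a low level. Oasl2, an oligoadenylate synthetase-like protein, stood at 0.373 and 0.203 CPM in WT, against 4.19 CPM in KO 1 and 1.48 CPM in KO 2 (log2 3.36, SE 0.58, adjusted p = 0.00537). Rsad2, or viperin, an enzyme that makes a chain-terminating nucleotide, had 0 and 5 UMIs in WT and 369 and 18 UMIs in KO 1 and KO 2 (log2 5.76, SE 1.56, adjusted p = 0.0353), a test that supports nothing since the gene entered it through KO alone. Both KO libraries held more than both WT libraries for each gene, and for Rsad2 nearly all of the UMIs lay in KO 1. The call of Rsad2 was lost without KO 1 (log2 2.52, adjusted p = 0.102), without WT 1 (5.00, adjusted p = 0.0910) and without WT 2 (10.34, adjusted p = 0.0703), the last a fit against a library with no UMI.

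All 5 tested genes of membrane and other induced proteins were higher in KO. Ifitm3, which blocks the fusion of viruses with endosomes, stood at 175 and 171 CPM in WT, against 580 CPM in KO 1 and 429 CPM in KO 2 (log2 1.54, SE 0.13, adjusted p = 0.000156). Ifi27l2a, a small hydrophobic protein of the Ifi27 family, stood at 2.18, 1.79, 51.9 and 21.5 CPM (log2 4.23, SE 0.44, adjusted p = 0.000471). Bst2, or tetherin, which holds budding virus at the cell surface, stood at 43.8, 42.1, 82.4 and 63.3 CPM (log2 0.76, SE 0.12, adjusted p = 0.00321). In Ifitm3 and Bst2 KO 2 lay farther from both WT libraries than from KO 1, and Ifi27l2a in KO 2 was 10.8 times the WT mean. Ifi27 stood at 256, 261, 425 and 322 CPM (log2 0.53, SE 0.12, adjusted p = 0.0153). Ifi35 stood at 28.2, 30.3, 40.7 and 34.2 CPM (log2 0.36, SE 0.10, adjusted p = 0.0355). KO 1 was 1.65 and 1.39 times the WT mean for these genes and KO 2 1.25 and 1.17 times, and without KO 1 the log2 differences were 0.32 and 0.22. Ifi27 missed the threshold without WT 1 (adjusted p = 0.0510), and Ifi35 missed it without KO 1 (0.160), without WT 1 (0.160) and without WT 2 (0.0579).

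The 3 guanylate-binding protein genes, which lie on chromosome 3 between 142530342 and 142638008 and encode large GTPases attacking the membranes of intracellular pathogens, were all higher in KO. Gbp2 stood at 8.51 and 9.71 CPM in WT, against 17.6 CPM in KO 1 and 15.6 CPM in KO 2 (log2 0.86, SE 0.11, adjusted p = 0.00119). Gbp3 stood at 1.00, 1.38, 7.41 and 3.97 CPM (log2 2.24, SE 0.32, adjusted p = 0.00235). Gbp7 stood at 7.05, 7.19, 18.2 and 13.4 CPM (log2 1.15, SE 0.15, adjusted p = 0.00139). No groups overlapped, and for Gbp2 the KO libraries differed by no more than the WT libraries did in proportion. All 3 kept their calls when any 1 library was left out.

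Class I antigen presentation split by step. The immunoproteasome subunit gene Psmb8 stood at 1.63 and 1.32 CPM in WT, against 8.17 CPM in KO 1 and 6.11 CPM in KO 2 (log2 2.29, SE 0.20, adjusted p = 0.000233). Psmb9, another immunosubunit, stood at 1.15, 1.73, 3.52 and 3.15 CPM (log2 1.19, SE 0.22, adjusted p = 0.00761). Tap1, the peptide transporter, stood at 2.72, 2.90, 4.53 and 3.05 CPM (log2 0.43, SE 0.21, adjusted p = 0.192) and was called without KO 2 (0.68, adjusted p = 0.0409). Both immunosubunits were high in both KO libraries, while Tap1 was raised in KO 1 and near WT in KO 2. Psmb9, Tap1 and Psmb8 lie in this order on chromosome 17 between 34181987 and 34201454, and the gene models of Psmb9 and Tap1 share 212 bases on opposite strands.

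The products that present the peptides were not called higher. B2m, the light chain of every class I molecule, stood at 333 and 345 CPM in WT, against 373 CPM in KO 1 and 324 CPM in KO 2, where the KO values enclosed the WT values (log2 0.04, SE 0.08, adjusted p = 0.770; -0.07 without KO 1). H2-K1 stood at 96.3, 101, 106 and 102 CPM (log2 0.08, SE 0.07, adjusted p = 0.442). H2-D1 stood at 180, 191, 159 and 154 CPM, with both KO libraries below both WT libraries (log2 -0.25, SE 0.06, adjusted p = 0.0292). The call of H2-D1 was lost without WT 1 (adjusted p = 0.0613), WT 2 (0.157) or KO 2 (0.0897), at log2 differences from -0.29 to -0.21. The longest coding transcripts of H2-K1 and H2-D1 are identical at 91.1% of their aligned bases, so reads shared between class I genes may be split unevenly. The classical partners that the immunosubunits replace, Psmb5, Psmb6 and Psmb7, were called by none of edgeR, DESeq2 and limma-voom, with 0 of 3 at an unadjusted p under 0.05 (log2 0.08, 0.15 and -0.02; Psmb7 lay between -0.07 and 0.04 over all alternatives).

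Many UMIs of the genes Isg15, Ifit1, Ifit3, Ifit3b and Rsad2 lay in few cells. Cells with at least 5 UMIs of these 5 genes together, called interferon-high cells below, numbered 3 of 2429 in WT 1 (0.124%, exact 95% binomial interval 0.0255 to 0.361%), 2 of 3265 in WT 2 (0.0613%, 0.00742 to 0.221%), 156 of 4252 in KO 1 (3.67%, 3.12 to 4.28%) and 28 of 3522 in KO 2 (0.795%, 0.529 to 1.15%). The intervals cover counting error only. Both KO libraries lay above both WT libraries, by 2.14 percentage points on average, and a two-sided exact permutation test over the 4 libraries gave p = 0.33, the smallest it allows. Interferon-high cells held 16.3% and 3.08% of the UMIs of the 5 genes in WT 1 and WT 2, against 74.8% in KO 1 and 30.5% in KO 2. In KO 1, 13 cells with at least 50 such UMIs, 0.306% of its cells, held 46.1%. The highest cell held 33, 7, 545 and 47 UMIs of the 5 genes in WT 1, WT 2, KO 1 and KO 2.

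**Figure D3:**
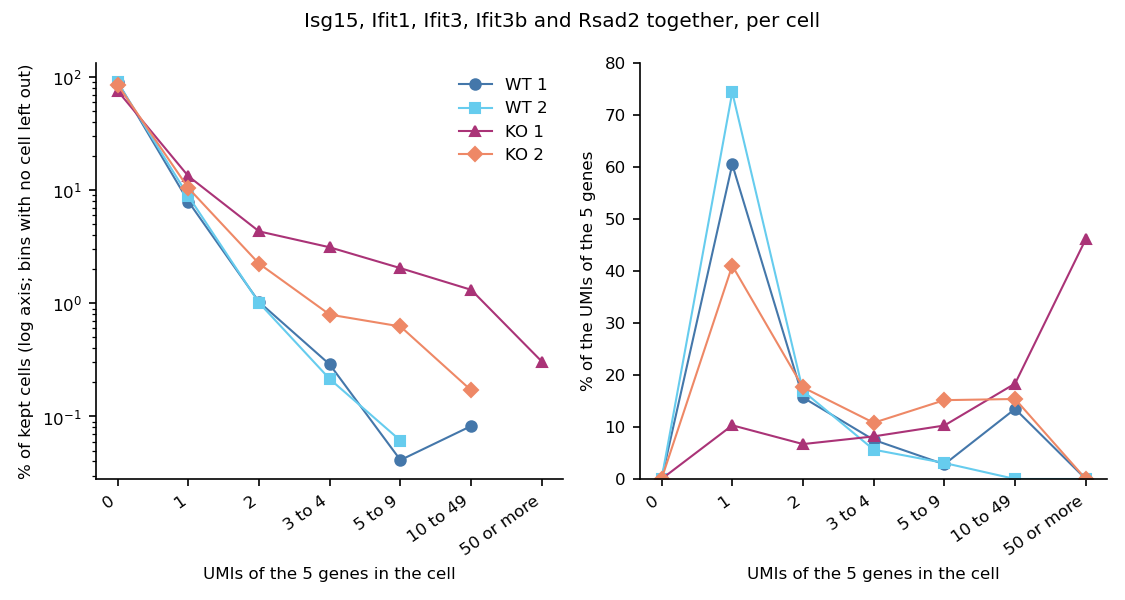
Cells by their summed UMIs of 5 genes, namely Isg15, Ifit1, Ifit3, Ifit3b and Rsad2. Left, percent of kept cells in each bin on a log axis; right, percent of the library's UMIs of these genes held by each bin. Cells with 50 or more UMIs occur in KO 1 and in no other of the 4 libraries, and they hold 46.1% of the KO 1 UMIs of these genes.

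The interferon-high cells carried smooth muscle genes, and in both KO libraries their endothelial and fibroblast marker CPM was above that of the whole library. Their 8 smooth muscle markers summed to 51507, 50818, 62046 and 51251 CPM for WT 1, WT 2, KO 1 and KO 2. The whole libraries stood higher, at 53700, 55886, 65420 and 61465 CPM. Fibroblast markers summed to 430 and 606 CPM in the interferon-high cells of KO 1 and KO 2, against 342 and 336 CPM in the whole libraries. Pericyte markers summed to 455 and 893 CPM in these cells, against 512 and 693 CPM. Macrophage markers summed to 333 and 12.8 CPM, against 18.7 and 3.34 CPM. Their median depth was 14609.5 UMIs in KO 1 and 16036 in KO 2, against 13873 and 14396 in the other cells, and none exceeded 3 times its library's median. Of the 156 in KO 1, 7 held a macrophage UMI, and of the 28 in KO 2, 2 did. A cell of KO 1 with 767 macrophage UMIs just met the limit, with 5 UMIs of the 5 genes. Without cells of at least 5 macrophage UMIs the share in KO 1 was 3.65%, and it was unchanged in KO 2 at 0.795%. Endothelial markers summed to 271 CPM in the interferon-high cells of KO 1 and 683 CPM in those of KO 2, against 185 and 200 CPM in the whole libraries. In WT 1 and WT 2 they summed to 421 and 46.2 CPM, from 17 and 2 UMIs. The 156 cells of KO 1, 3.67% of its cells, held 15 of its 30 Cdh5 UMIs, 12 of 32 of Tek and 69 of 195 of Vwf. They held 5 of 24 of Cldn5, 0 of 3 of Emcn, 0 of 7 of Kdr, 39 of 831 of Esam and 43 of 910 of Erg. The 28 cells of KO 2, 0.795% of its cells, held 12 of its 31 Cdh5 UMIs, 10 of 22 of Tek and 24 of 135 of Vwf. Of Cldn5 they held 14 of 23, of Emcn 11 of 18, of Kdr 0 of 6, of Esam 15 of 593 and of Erg 20 of 849. Without cells of at least 5 endothelial UMIs other than Fabp4, of which 2 in KO 1 and 3 in KO 2 were interferon-high, the shares were 3.64% and 0.717%.

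Removing the interferon-high cells lowered the 5 genes that choose them, as it must, so these are given without a test. Isg15 then stood at 3.30, 3.60, 16.8 and 8.67 CPM and Ifit1 at 0.316, 0.224, 2.73 and 1.08 CPM for WT 1, WT 2, KO 1 and KO 2, with both KO libraries still above both WT libraries. Ifit3 stood at 2.84, 2.85, 3.49 and 1.82 CPM and Ifit3b at 1.21, 0.915, 0.841 and 0.412 CPM, so the high value of KO 1 was gone. Rsad2 was left with 0, 5, 19 and 12 UMIs. In KO 1 the interferon-high cells held 94.9% of the Rsad2 UMIs, 86.1% of those of Ifit3b, 83.1% of Ifit1, 80.4% of Ifit3 and 66.1% of Isg15, and in KO 2 they held 33.3%, 32.3%, 58.0%, 19.1% and 26.6%.

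The other genes moved less. Of the 21 tested genes that choose no cells, 15 were called higher and 1 lower, the same counts as with all cells, and over all tested genes 9.1% were called higher and 11.3% lower. The 21 genes had a median log2 difference of 0.86 with all cells and 0.77 without the interferon-high cells. Oasl2 went from 3.36 to 2.53, Usp18 from 2.12 to 1.48 and Irf7 from 2.16 to 1.73 on the log2 scale, and interferon-high cells held 51.8%, 47.0% and 42.0% of their UMIs in KO 1. Ifitm3 went from 1.54 to 1.5, Gbp2 from 0.86 to 0.77 and Psmb8 from 2.29 to 2.11, and these cells held 9.01%, 12.5% and 22.9% of their UMIs in KO 1. Without KO 1 and without interferon-high cells together, the log2 difference was 1.97 for Oasl2 (adjusted p = 0.0189), 1.30 for Ifitm3 (3.06e-06), 2.03 for Psmb8 (0.000203) and 0.76 for Usp18, which was not called (0.165).

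**Figure D4:**
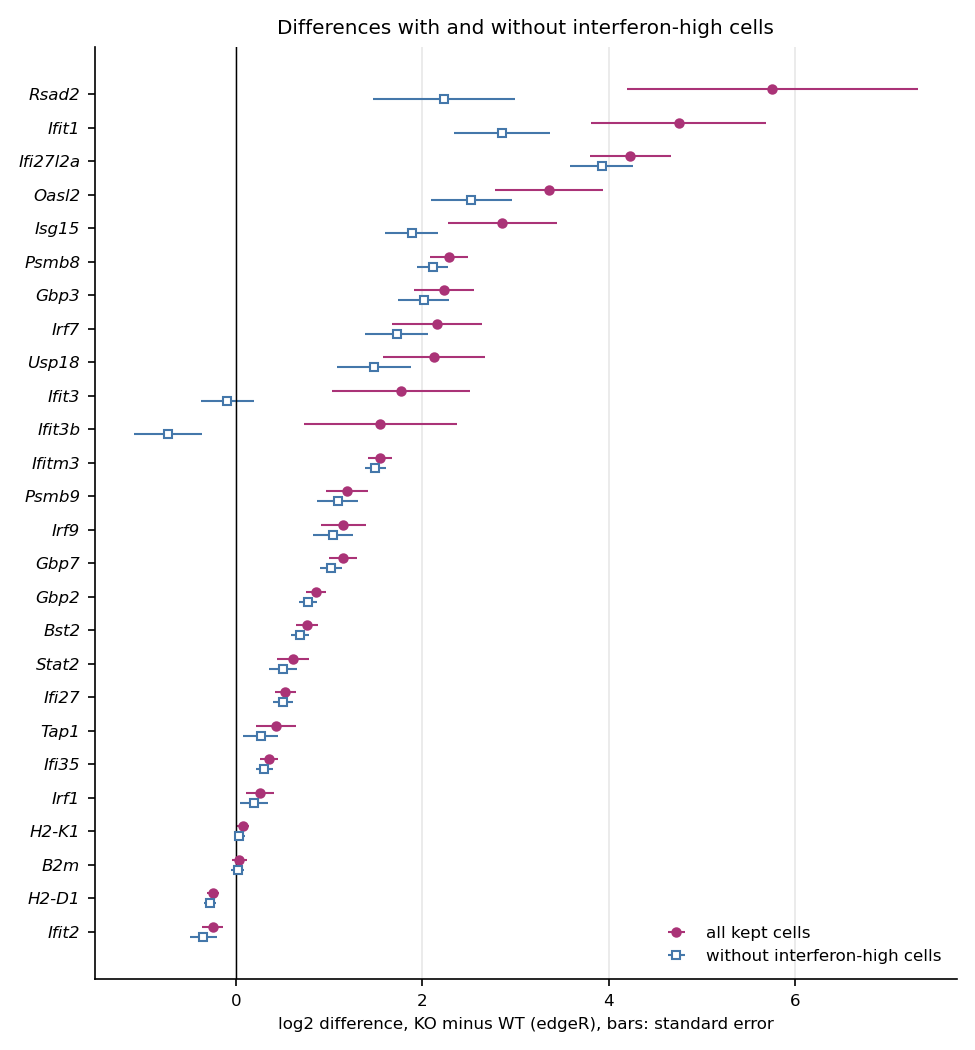
Log2 difference, KO minus WT, of each tested gene with all kept cells (filled) and without interferon-high cells (open), with bars of 1 standard error. Rsad2, Ifit1, Ifit3 and Ifit3b shift far to the left, while Ifitm3, Bst2, Gbp2 and Psmb8 stay close to their values with all cells. The open symbols of Isg15, Ifit1, Ifit3, Ifit3b and Rsad2 are a description, since these genes choose the cells.

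Within the KO libraries, each of the 21 other tested genes was higher in the interferon-high cells than in the rest, but 15 in KO 1 and 9 in KO 2 rose from every bin of the 5-gene UMIs to the next. In KO 1 Ifitm3 stood at 500, 690, 901, 1089 and 1658 CPM in cells with 0, 1 to 2, 3 to 4, 5 to 9 and 10 or more such UMIs, and in KO 2 at 410, 536, 764, 969 and 1267 CPM. Irf9 stood at 17.5, 32.8, 56.7, 87.0 and 81.4 CPM in KO 1 and at 11.8, 19.4, 56.7, 65.2 and 138 CPM in KO 2. B2m, which was not called between the genotypes, stood at 348, 417, 449, 480 and 703 CPM in KO 1 and at 320, 369, 419, 456 and 521 CPM in KO 2. The last bin holds 69 cells in KO 1 and 6 in KO 2, so its KO 2 values rest on few cells, and 9 of the 21 genes, H2-K1 and Gbp7 among them, were lower there than in the bin before. These are values of cells of the same library and share its RNA, and median depth per bin lay between 13034.5 and 16237.5 UMIs in the KO libraries.

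Cells without a UMI of the 5 genes made up 90.6%, 89.8%, 75.6% and 85.7% of WT 1, WT 2, KO 1 and KO 2, and several genes differed between the genotypes there too. In these cells Ifitm3 stood at 169 and 166 CPM in WT, against 500 CPM in KO 1 and 410 CPM in KO 2. Psmb8 stood at 1.62, 1.33, 5.55 and 5.08 CPM and Gbp7 at 6.80, 6.99, 13.7 and 12.6 CPM. Ifi27l2a stood at 1.91, 1.58, 30.8 and 17.2 CPM. For these 4 genes the KO libraries were thus apart from the WT libraries even in cells that showed none of the 5 genes. Fewer cells with a gene and less RNA of it per cell cannot be told apart in such sums.

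**Figure D5:**
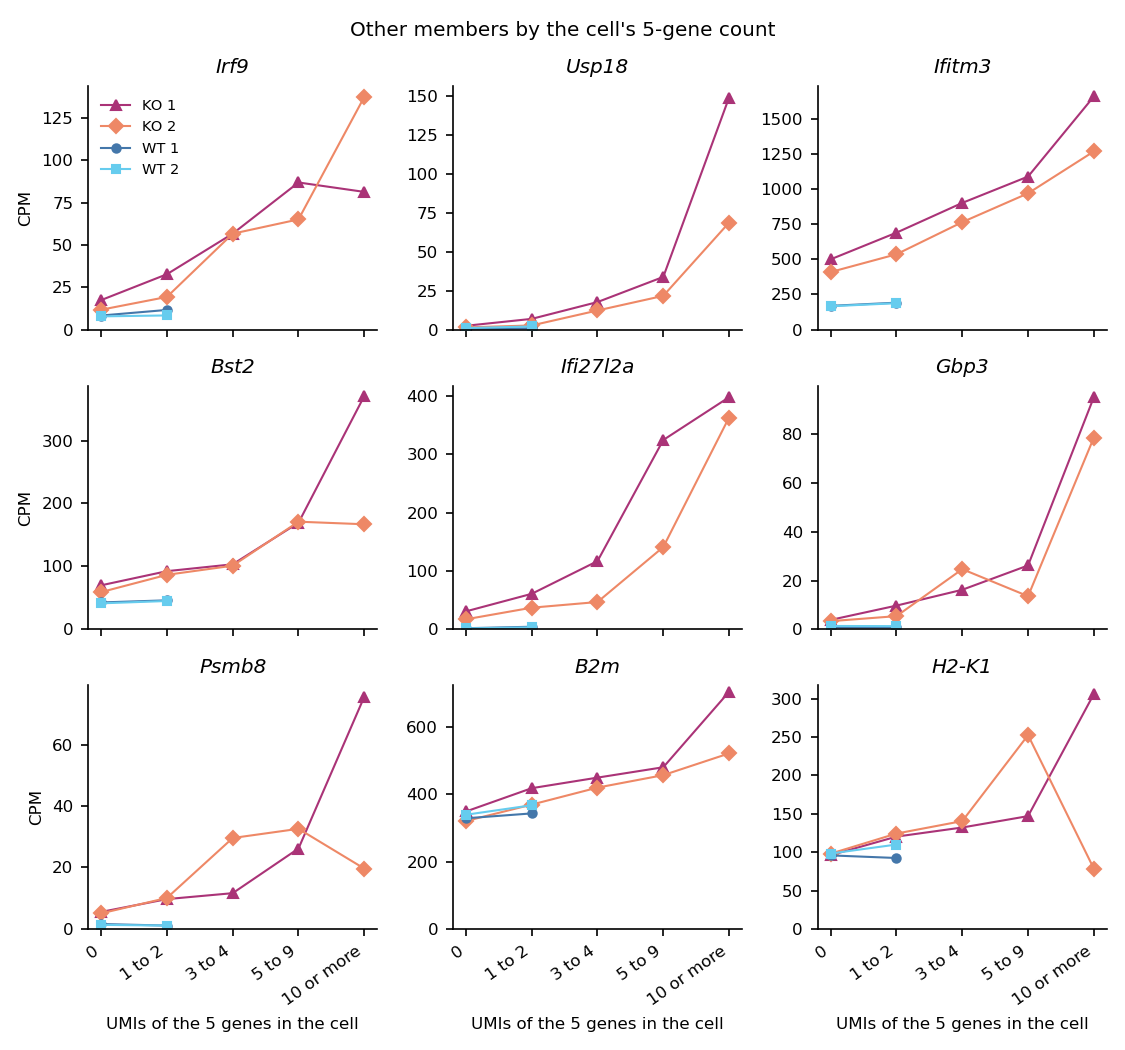
Level (CPM) of 9 genes in cells grouped by their summed UMIs of the 5 genes that define interferon-high cells, for each library with its bins of 0 to 2 UMIs in WT and all bins in KO. Ifitm3 rises from 500 to 1658 CPM in KO 1, and the bin of 10 or more UMIs in KO 2 holds 6 cells.

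Most UMIs of Ifi27l2a in KO lay in few cells, only some of which were interferon-high. Cells with at least 5 of its UMIs numbered 3 and 2 in WT 1 and WT 2, against 154 in KO 1 and 51 in KO 2, and in the KO libraries they held 82.7% and 73.6% of its UMIs. Of these cells 28 in KO 1 (18.2%) and 3 in KO 2 (5.88%) were interferon-high, against 3.67% and 0.795% of all cells, and 77 of 154 and 40 of 51 had no UMI of the 5 genes. The highest cell held 217 of its UMIs in KO 1 and was the cell with 767 macrophage UMIs, and the highest in KO 2 held 89. Without cells of at least 5 macrophage UMIs the log2 difference of Ifi27l2a was 4.15 (adjusted p = 0.000336), against 4.23 with them. Ifitm3 was spread more widely, with at least 5 UMIs in 16.2% of the cells of each WT library and in 64.0% and 55.4% of KO 1 and KO 2. Its median level per cell was 143 CPM in both WT libraries and 452 and 365 CPM in KO 1 and KO 2.

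Shares of cells with a UMI were compared after each cell of at least 5000 UMIs was thinned to 5000, which left out 197, 162, 150 and 169 shallower cells of WT 1, WT 2, KO 1 and KO 2. Ifitm3 was then detected in 54.6%, 54.8%, 86.6% and 81.6% of cells (82.7%, 83.4%, 96.7% and 94.9% unthinned). Isg15 was detected in 1.52%, 1.74%, 10.5% and 4.59% (4.41%, 4.84%, 18.6% and 10.6% unthinned), and without interferon-high cells in 1.39%, 1.71%, 7.57% and 3.94%. Ifi27l2a was detected in 0.538%, 0.483%, 7.31% and 3.55% (1.32%, 1.41%, 11.0% and 6.67% unthinned). The exact 95% intervals of the KO libraries lay clear of those of both WT libraries for these 3 genes, which covers counting error only. Psmb8 was detected in 0.717%, 0.516%, 3.22% and 3.52% (2.18%, 1.81%, 8.26% and 7.41% unthinned), where the order of KO 1 and KO 2 was opposite to that in CPM. B2m was detected in 78.2%, 78.4%, 80.3% and 76.5% (92.5%, 95.1%, 95.5% and 94.3% unthinned), and H2-D1 in 54.5%, 58.3%, 51.3% and 50.4% (82.9%, 86.7%, 81.1% and 80.6% unthinned). No other cell type was present in number to show how much free RNA adds to such shares.

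The other genes of the pathway were taken from lists that hold none of the 29 genes. Counts of calls in these lists stand beside 9.17% of all tested genes called higher and 11.1% called lower. The 20 interferon genes held 1, 2, 1 and 1 UMIs in all in WT 1, WT 2, KO 1 and KO 2, so none was tested, and 3 UMIs, the limit that a count of 0 allows, stand for 0.0507 to 0.0851 CPM per gene. Among the receptors and kinases, the kinase gene Jak1 was higher by 0.34 (adjusted p = 0.0134; 0.0953 without WT 1). Ifngr2, a chain of the interferon-gamma receptor, was lower by 0.35 (adjusted p = 0.0317), a call lost without WT 1 (0.0922), WT 2 (0.0762) or KO 2 (0.102). Of 15 tested nucleic acid sensors and adaptors, 5 were called higher and 0 lower by edgeR, with 6 higher and 1 lower at an unadjusted p under 0.05 and 0 lower also by DESeq2 and limma-voom. Ifih1, a sensor of long double-stranded RNA, stood at 1.43, 1.52, 5.35 and 3.83 CPM (log2 1.63, SE 0.21, adjusted p = 0.00149). Ddx58, which senses RNA with free 5′ phosphates, and the adaptor Myd88 were higher by 0.58 and 0.56 (adjusted p = 0.0122 and 0.00704).

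Of 52 tested genes in the list of other interferon-stimulated genes, 27 were called higher and 1 lower, against 9.17% and 11.1% of all tested genes. Lists can share genes, and Ifih1 is counted here as well as among the sensors. The count over all lists takes each gene once. The median log2 difference of the 52 genes was 0.58. The 3 with the smallest p were Lgals9, a galectin, at 0.373, 0.569, 3.35 and 2.53 CPM (log2 2.60, SE 0.28, adjusted p = 0.000563), the surface protein gene Ly6e (log2 2.38, adjusted p = 0.000589) and the galectin-binding protein gene Lgals3bp (log2 1.73, adjusted p = 0.000930). Of these 52 genes, 4 entered the test through KO alone, and without them 24 of 48 were called higher with a median of 0.45. Of the other guanylate-binding protein genes, Gbp6 and Gbp5 were called higher by 1.91 and 1.22 on the log2 scale. Gbp5 lost its call with cells thinned to 5000 UMIs (0.54, adjusted p = 0.240) and without interferon-high cells when KO 1 (0.0615) or KO 2 (0.0678) was also left out, as Gbp6 did without KO 1 and those cells (0.0578). Gbp9, at 0.115, 0.162, 0.909 and 0.719 CPM, entered the test through KO alone. Of 17 other genes of class I presentation, 7 were called higher and 3 lower, against the same 9.17% and 11.1% of all tested genes. H2-T23, which encodes the non-classical molecule Qa-1, stood at 6.94 and 6.60 CPM in WT, against 18.8 CPM in KO 1 and 16.2 CPM in KO 2 (log2 1.37, SE 0.11, adjusted p = 0.000129). Psmb10, the third immunosubunit, was higher by 1.06 and Psme1, a proteasome activator subunit, by 0.44 (adjusted p = 0.00132 and 0.00477). None of 6 tested class II genes was called by edgeR, DESeq2 or limma-voom, and 3 were higher at an unadjusted p under 0.05. H2-Aa stood at 0.172, 0.406, 1.21 and 0.583 CPM (log2 1.57, SE 0.49, adjusted p = 0.0581), and H2-Aa and H2-Ab1 were called without KO 2 (adjusted p = 0.0173 and 0.0279) and without WT 2 (0.0421 and 0.0462). Over all lists 42 of 104 genes were called higher and 5 lower, with a median of 0.40 (38 of 98 and 0.35 without the 6 genes that entered through KO alone), and without interferon-high cells 40 of 103 were called higher and 6 lower.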

How the data were processed

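The values are raw UMI counts by gene and barcode, made by the authors and deposited without normalization; per the file headers the software was Cell Ranger 5.0.1. The build is mm10 and Seurat 4.0 is named, without its role, per the submitters' processing notes; the chemistry is Chromium 3′ v3.1 per the labels' protocols. The labels state 2597, 3420, 4376 and 3707 cells before and 2151, 3000, 4031 and 3246 after filtering for WT 1, WT 2, KO 1 and KO 2, by criteria not given in the sources used here, and the matrices hold 2769, 3565, 4504 and 3858 barcodes. The 38 symbols that name more than 1 row were kept apart by gene ID. Counts were summed over the kept cells of each library and KO was set against WT by the quasi-likelihood test of edgeR 4.0.16 in R 4.3.3 (TMM factors, default low-count filter), with Benjamini-Hochberg adjustment over all 14474 tested genes and a threshold of 0.05. An adjusted p is from this test unless another tool is named. CPM by library is on the TMM scale, and CPM of cell bins and marker sums on plain totals. A log2 difference is KO minus WT. The biological coefficient of variation was 7.84%. The code was tested on simulated data.

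The genes, lists and tests were chosen with earlier results of these data known. All 29 genes may be named, and of each list the 3 genes with the smallest p. One item of these lists is not reported here. Marker lists covered smooth muscle, macrophages, endothelium, fibroblasts, lymphocytes, plasmacytoid dendritic cells, neutrophils, red cells and pericytes. No doublet was removed; one alternative left out cells above 3 times the median UMI count. Gene positions are from GENCODE M21 and promoters from RefSeq, both on GRCm38. Alternatives were DESeq2 1.42.0, limma-voom (limma 3.58.1), other scalings and filters, a replicate block, other cell sets, and leaving out each library.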

Additional observations from a re-analysis of the deposited data

How the results depend on the processing

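Over up to 24 alternatives, 10 called genes kept call and direction wherever they were tested (Irf9, Oasl2, Ifitm3, Bst2, Ifi27l2a, Gbp2, Gbp3, Gbp7, Psmb8 and Psmb9), and 9 lost the call at least once (Irf7, Stat2, Isg15, Usp18, Ifit1, Rsad2, Ifi27, Ifi35 and H2-D1). With 1 library left out, 13 to 21 of the 29 genes were called higher and 0 to 1 lower, and 31 to 52 and 1 to 6 of the list genes; the lone library of a genotype was then assumed to vary like the others. DESeq2 called 16 genes higher and limma-voom 12. Shares over all genes are not given here for these tools, for the fits without a WT library or for the other settings of this paragraph. Above a mean of 20 CPM, where fewer genes are tested, 4 of the 7 genes tested there and 5 list genes were higher. All 7 had the same direction and call status as in the main test. With upper-quartile factors and with cells thinned to 5000 UMIs 0 of the 29 genes were lower by edgeR. Without the low-count filter 8 list genes were lower. Without KO 1 and interferon-high cells together 27 list genes were higher, and without KO 2 and those cells 2 were lower; these joint alternatives, and the share of interferon-high cells without endothelial-marked cells, were chosen after seeing the data.

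Directions turned for 4 genes. Ifit3 and Ifit3b are among the 5 genes that choose the removed cells, so their values without those cells are a description and not a test. Ifit3 was at -0.091 and -0.22 without cells of at least 5 and 3 UMIs of the 5 genes, at -0.64 without KO 1 and interferon-high cells, and between -0.35 (without KO 1) and 2.58 (without KO 2) with 1 library left out. Ifit3b was at -0.73, -1.01 and -1.34 in the same settings, at -0.51 without cells of at least 10 such UMIs, at -0.32 without KO 2 and interferon-high cells, and between -0.89 (without KO 1) and 2.39 (without KO 2). B2m was at -0.073 without KO 1 and interferon-high cells and between -0.069 (without KO 1) and 0.136 (without KO 2). Psmb7 was at 0.013 with library totals, 0.019 with upper-quartile factors, 0.033 without KO 2 and interferon-high cells, and between -0.070 (without KO 1) and 0.037 (without KO 2). Apart from this choice of cells by Ifit3 and Ifit3b, the cause was not tested.

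The share of interferon-high cells follows its limit and the depth. With a limit of 3 UMIs it was 0.412%, 0.276%, 6.80% and 1.59% in WT 1, WT 2, KO 1 and KO 2. In the same order it was 0.0823%, 0%, 1.62% and 0.170% with a limit of 10, 0.0896%, 0%, 1.27% and 0.179% with cells thinned to 5000 UMIs, and 0.152%, 0%, 2.69% and 0.303% with cells thinned to 10000 UMIs. In these 3 settings the exact interval of KO 2 overlapped that of WT 1, while that of KO 1 lay above both WT intervals. With a limit of 10 and with cells thinned to 5000 UMIs the interval of KO 2 overlapped that of WT 2 as well.

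Libraries with the same replicate number shared little (r = 0.0437 between the deviations of WT 1 and KO 1 over 14474 genes), so the numbers were not taken to pair them. With the replicate block 19 of the 26 tested genes were called higher and 1 lower (list genes 47 and 7), Ifit3 being called at 1.28 (adjusted p = 0.0411). The share over all tested genes is not given here for this fit, so these counts have no background beside them. Genes with few WT UMIs, such as Rsad2 and Oasl2, have differences that the depth leaves imprecise.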
